A study of Mus musculus with 6 samples.

Results

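Cell cycle and proliferation genes were examined in kidney endothelial cells (ECs) of mice with and without endothelial deletion of Rbpj. The 48 genes, chosen by name, comprised 11 genes of S phase, 21 genes of mitosis, 8 cyclins and cyclin-dependent kinases (CDKs) of the G1/S transition, 4 transcription factors and 4 CDK inhibitors. All 48 were among the 55401 genes listed, and 44 were among the 18438 genes with enough counts to be tested. The libraries came from male mice, 3 per group. RbpjΔEC mice carried 1 copy of Cdh5(PAC)-CreERT2, a Cre recombinase driven by the Cdh5 promoter of ECs and activated by tamoxifen, together with floxed alleles of Rbpj on both chromosomes. CTRL mice were their Cre-negative littermates with the same floxed alleles. Mice of both groups received tamoxifen, 5 doses of 1.5 mg, at 8 weeks of age, and kidneys were taken 12 weeks later (the labels give an age of 21 weeks). ECs were enriched with magnetic beads and sorted as CD31+ CD45- cells, so the libraries hold RNA of ECs from the whole kidney, whichever vessel they lined.

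The mitotic cell cycle runs through G1, S phase, G2 and mitosis. D-type cyclins with Cdk4 and Cdk6, and then E-type cyclins with Cdk2, release E2F factors from the retinoblastoma protein, and E2F factors switch on genes for the replication machinery, such as the Mcm helicase subunits, the sliding clamp Pcna and enzymes of nucleotide supply. Later genes, for the cyclins A and B, the spindle and the kinetochore, are switched on around G2 by Mybl2 and Foxm1, and CDK inhibitors such as Cdkn1b and Cdkn1c hold cells out of the cycle. ECs of an adult kidney are mostly quiescent, and Notch, which acts on transcription through Rbpj, is known as a brake on EC proliferation in growing vessels.

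Stretches of RefSeq promoter sequence (GRCm38.p6) are shown for the 2 genes that passed the test, Pcna and Cdk2, for the only gene with the RBPJ letters, and for 3 genes of mitosis whose promoters hold the letters of the cell cycle genes homology region (CHR). Each is written 5′ to 3′ on the strand of the gene and ends before the start of the gene in both RefSeq and GENCODE, and capitals mark the letters searched for. The Pcna stretch is chr2:132253315-132253430, that of Cdk2 chr10:128705052-128705201, that of Mcm3 chr1:20820313-20820562, that of Mki67 chr7:135716380-135716529, that of Top2a chr11:99024190-99024339 and that of Cdk1 chr10:69352939-69353088, all on the minus strand. The capitals are E2F letters in Cdk2, RBPJ letters in Mcm3, CHR letters in Mki67 and Top2a, and E2F letters followed by CHR letters in Cdk1, while Pcna holds none.
Pcna: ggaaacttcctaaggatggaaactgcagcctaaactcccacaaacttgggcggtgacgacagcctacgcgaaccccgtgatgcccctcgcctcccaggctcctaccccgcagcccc
Cdk2: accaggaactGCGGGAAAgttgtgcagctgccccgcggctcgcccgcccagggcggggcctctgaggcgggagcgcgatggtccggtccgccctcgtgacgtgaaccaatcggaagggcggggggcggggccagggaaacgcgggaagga
Mcm3: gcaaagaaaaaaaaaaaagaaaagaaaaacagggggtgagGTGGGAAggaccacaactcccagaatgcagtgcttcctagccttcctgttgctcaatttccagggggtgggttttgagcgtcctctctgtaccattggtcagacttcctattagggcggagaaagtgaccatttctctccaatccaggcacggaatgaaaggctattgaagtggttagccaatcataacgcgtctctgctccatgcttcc
Mki67: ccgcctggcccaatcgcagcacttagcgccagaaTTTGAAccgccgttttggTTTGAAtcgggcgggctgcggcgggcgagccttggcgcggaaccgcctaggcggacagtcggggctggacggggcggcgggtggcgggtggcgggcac
Top2a: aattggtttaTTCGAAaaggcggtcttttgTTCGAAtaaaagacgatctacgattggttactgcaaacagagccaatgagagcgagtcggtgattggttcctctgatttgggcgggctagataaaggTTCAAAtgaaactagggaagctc
Cdk1: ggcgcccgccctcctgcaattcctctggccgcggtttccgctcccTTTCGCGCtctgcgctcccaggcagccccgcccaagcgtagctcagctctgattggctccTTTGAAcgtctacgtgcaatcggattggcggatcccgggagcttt

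A promoter was found for 38 of the 48 genes, and the 250 bases before each start were searched on both strands. The RBPJ letters GTGGGAA stood in 1 of the 38 promoters (2.63%), against 6.18% of the promoters of 27025 genes. The E2F letters (TTTCCCGC, TTTGGCGC, TTTCGCGC or TTTGCCGC) stood in 6 of the 38 (15.8%), against 2.16% of all promoters. The 6 were 4 of 10 genes of S phase, Cdc6, Mcm5, Mcm6 and Mcm7, together with Cdk1 and Cdk2. The CHR letters (TTTGAA or TTCGAA) stood in 12 of the 38 (31.6%), among them 8 of 17 genes of mitosis (47.1%), against 19.6% of all promoters. No word of 1 motif lies within a word of another. These are matches of letters in a fixed window, and no binding was measured in these samples.

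Total counts per library were between 39649171 and 47726850, so that the floor of 3 counts lay between 0.0634 and 0.0749 CPM (counts scaled to the total over the tested genes of each library, with TMM factors). CTRL 1 stood apart, since it listed a count for 33764 genes against 25629 to 26785 in the other libraries. Values without CTRL 1 are given beside the called genes and the low genes that it moved most. Counts over the whole Rbpj gene, including exons outside the floxed part, were 28.1, 29.7 and 29.8 CPM in CTRL and 28.9, 26.1 and 29.6 CPM in RbpjΔEC, which overlapped and give no check of the deletion. All 10 pan-endothelial markers were abundant, with sums of 24146 to 26526 CPM in CTRL and 22142 to 22362 CPM in RbpjΔEC. Markers of other cells were present at lower sums. Mural markers summed to 85.1 to 112 CPM in CTRL and 35.0 to 56.5 CPM in RbpjΔEC, where 3 of 8 fell past the threshold. Tubule markers summed to 278 to 416 against 106 to 392 CPM, podocyte markers to 3184 to 3564 against 2591 to 2859 CPM, erythroid markers to 6.76 to 7.13 against 0.954 to 5.91 CPM and fibroblast markers to 4.16 to 6.41 against 1.24 to 2.57 CPM.

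Across the 44 tested genes, 2 rose in RbpjΔEC and none fell. Cdk2 and Pcna passed an edgeR adjusted p of 0.05, which 1.13% of all 18438 tested genes passed (0.575% higher and 0.559% lower). Of the 44, 6 had a higher level and 2 a lower level with an unadjusted p under 0.05, while 17.5% of all tested genes passed that limit (8.88% higher and 8.62% lower). The groups did not overlap for 9 of the 44, 7 higher and 2 lower, against 23.0% of all tested genes (11.4% higher and 11.6% lower). DESeq2 called Pcna and Cdk2 as well and no other member, against 3.13% of the genes tested (1.41% higher and 1.72% lower). The log2 fold change was above 0 in 32 of the 44, against 51.1% of all tested genes, and its median was 0.22, against 0.01 over all. The spread of values differed between the groups of genes. The abundant genes of S phase and of the G1/S transition lay closer to 0 apart from the 2 that rose, whereas the low ones (Cdc6 at 0.66, Rrm2 at 0.57, Ccne1 at 0.72 and Ccne2 at 0.38) and most genes of mitosis had positive values with wide intervals.

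**Figure D1:**
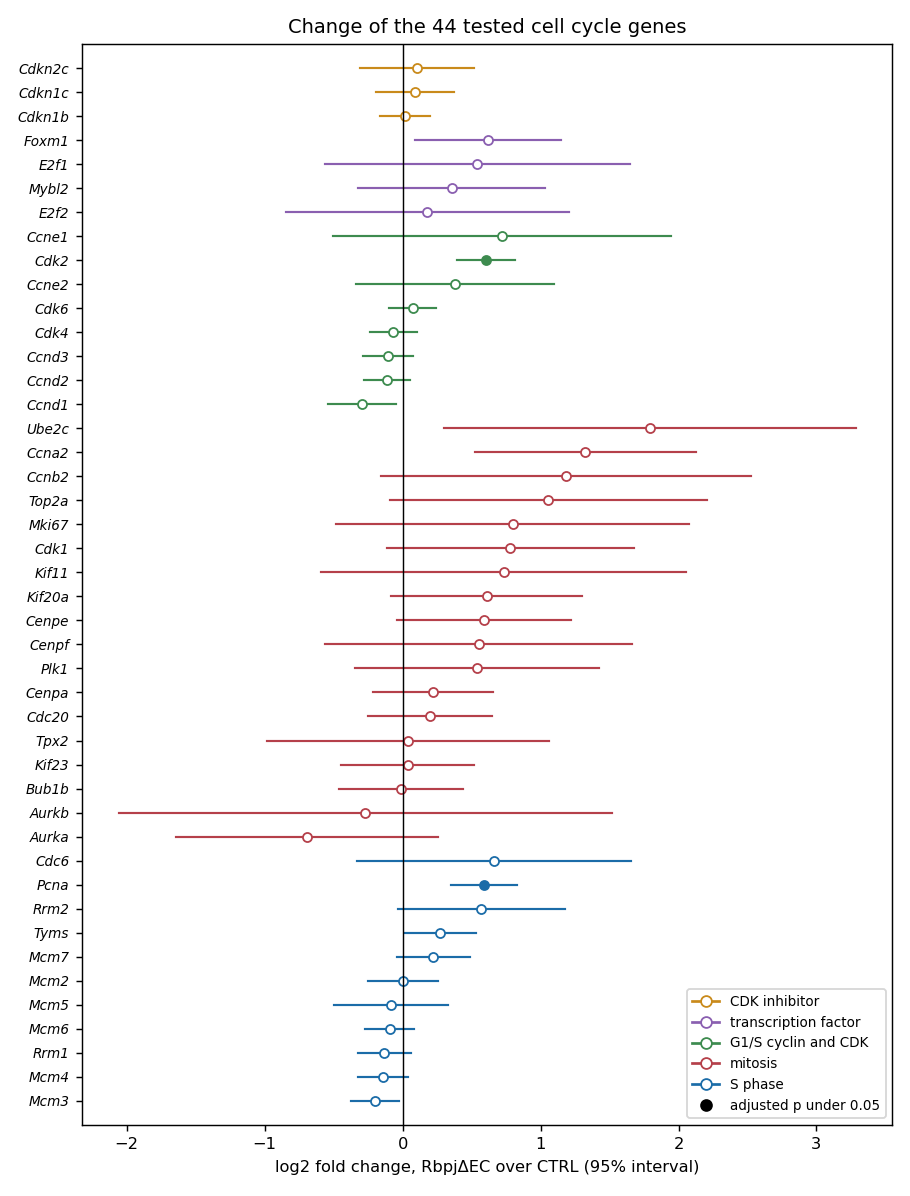
Log2 fold change of RbpjΔEC over CTRL (x axis) with its 95% interval for each of the 44 tested genes (y axis), coloured by role, from 3 libraries per group; filled points passed an adjusted p of 0.05. Pcna and Cdk2 are the filled points, and 15 of the 18 tested genes of mitosis lie right of 0 with intervals that mostly cross it.

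The 48 genes together took 0.0994% to 0.110% of the counts in a library, and their summed level was 1018 to 1087 CPM in CTRL and 1007 to 1084 CPM in RbpjΔEC. Levels between genes were compared as CPM per kilobase of exons. Ccnd2, a D-type cyclin, was at 27.1 in CTRL and 25.1 in RbpjΔEC. Pcna was at 20.7 and 31.3, Ccnd1 at 24.8 and 20.3, the CDK inhibitor Cdkn1b at 23.5 and 23.8, and Mcm3, a subunit of the replicative helicase, at 22.0 and 19.1 on the same scale. The genes at the top of the order were thus those of G1 and of replication, and genes of mitosis lay below them. Neighbours in this order were not tested against each other. The highest on the same scale, Cdc20, the activator of the anaphase-promoting complex, reached 1.70 and 1.96, and the proliferation marker Mki67 only 0.486 and 0.842. At the bottom stood Ccnb1, the cyclin that drives entry into mitosis, with 0, 0 and 1 counts in CTRL and 4, 12 and 4 counts in RbpjΔEC. A count of 0 allows up to 0.0748 CPM in CTRL 1 and 0.0634 CPM in CTRL 2.

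**Figure D2:**
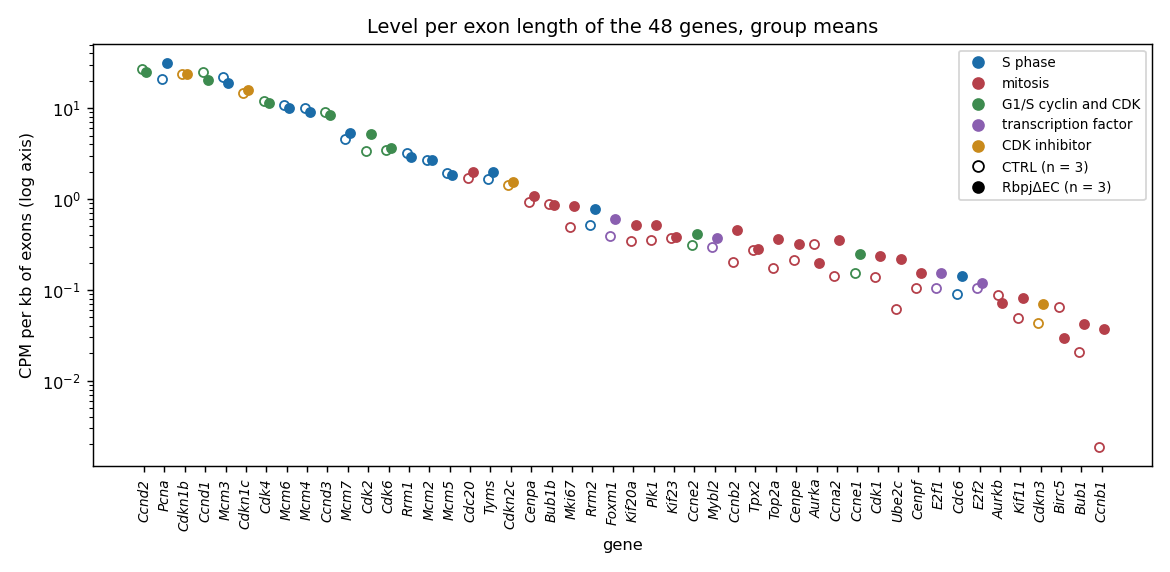
Mean level per kilobase of exons (y axis, CPM per kb, log axis) of each of the 48 genes (x axis, in order of level), open circles for CTRL and filled circles for RbpjΔEC, 3 libraries each, coloured by role. D-type cyclins, Pcna, Cdkn1b and the Mcm genes are at the left, and most genes of mitosis lie below 1 CPM per kb.

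The 4 genes that were not tested were the low ones. Ccnb1 had at most 12 counts in a library. Bub1, a kinase of the spindle checkpoint, had 4, 6 and 2 counts in CTRL and 5, 9 and 9 in RbpjΔEC. Birc5 (survivin), a subunit of the chromosomal passenger complex, had 13, 8 and 7 counts in CTRL and 8, 0 and 5 in RbpjΔEC. Cdkn3, a phosphatase that acts on CDKs, had 2, 11 and 1 counts in CTRL and 5, 15 and 1 in RbpjΔEC. Of the 44 tested genes, 38 reached the filter's level of 0.236 CPM (there without TMM factors) in all 6 libraries, and the other 6 (Ccnb2, Aurkb, Kif11, Ube2c, Ccne1 and E2f1) in 3 to 5 of them. Each of these 6 reached it in more RbpjΔEC than CTRL libraries.

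All 11 genes of S phase were measured well enough to be tested, and Pcna was the one that rose. Pcna, the clamp that holds DNA polymerase on its template, was at 44.2, 59.8 and 45.4 CPM in CTRL 1 to 3 and at 72.6, 78.8 and 73.8 CPM in RbpjΔEC 1 to 3. Every RbpjΔEC library lay above every CTRL library, and CTRL 2 was the highest control. The means were 49.8 ± 8.65 CPM (SD, n = 3) and 75.1 ± 3.31 CPM (SD, n = 3), a 1.51-fold difference. The log2 fold change was 0.59 (SE 0.109, 95% interval 0.35 to 0.83), with an edgeR adjusted p of 0.0362. The call was lost without CTRL 1 (adjusted p = 0.110), without CTRL 3 (0.147), without RbpjΔEC 1 (0.122) or without RbpjΔEC 2 (0.116), while the log2 fold change stayed between 0.51 and 0.74. With 3 libraries against 3, the exact permutation test reached the smallest two-sided p it allows, 0.1.

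The subunits of the Mcm helicase, which unwinds DNA at the fork, had log2 fold changes of -0.20 to 0.22, and none passed. Mcm3 was at 85.4, 79.9 and 82.0 CPM in CTRL and 72.4, 64.8 and 77.9 CPM in RbpjΔEC, lower in each RbpjΔEC library than in any CTRL library. Its log2 fold change was -0.20 (SE 0.0797), with an unadjusted p of 0.0270 and an edgeR adjusted p of 0.219, so it did not pass. Mcm4 also had groups that did not overlap, at 34.6 to 37.2 CPM in CTRL and 30.1 to 34.3 CPM in RbpjΔEC, with a log2 fold change of -0.14. Mcm2, Mcm5, Mcm6 and Mcm7 overlapped between the groups, with log2 fold changes of 0.00, -0.08, -0.09 and 0.22, of which Mcm5 turned to 0.05 and Mcm7 moved to 0.09 without CTRL 1. The promoter of Mcm3 is the one shown above with the RBPJ letters.

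Genes of nucleotide supply had positive and negative values. Tyms, thymidylate synthase, was at 9.58, 11.1 and 9.52 CPM in CTRL and 12.2, 12.3 and 12.0 CPM in RbpjΔEC. The RbpjΔEC libraries were higher and close together, but the difference did not pass (log2 fold change 0.27, SE 0.119, unadjusted p = 0.0401, edgeR adjusted p = 0.257). Rrm2, the small subunit of ribonucleotide reductase made in S phase, was at 1.12 to 1.65 CPM in CTRL and 1.98 to 2.47 CPM in RbpjΔEC, without overlap (log2 fold change 0.57, edgeR adjusted p = 0.313). Its partner Rrm1 was at 34.6 to 35.6 against 29.0 to 35.0 CPM, with a log2 fold change of -0.13. Cdc6, which loads the helicase, was below 1 CPM in every library, with a log2 fold change of 0.66 (1.00 without CTRL 1) and an interval of -0.33 to 1.66.

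Over the 11 genes of S phase the median log2 fold change was 0.00, with 6 above and 5 below 0. Their summed level was 311, 314 and 309 CPM in CTRL and 320, 333 and 316 CPM in RbpjΔEC. The groups did not overlap and the ratio of the means was 1.04. Without Pcna, a sum added after the values were seen, the order turned. The other 10 genes summed to 267, 255 and 264 CPM in CTRL and 247, 254 and 242 CPM in RbpjΔEC, just without overlap and with a ratio of 0.946. The higher sum in RbpjΔEC thus rested on Pcna. Leaving out the gene that rose lowers the RbpjΔEC sum by construction, so the sum of the 10 is not read as a fall of these genes. Mcm3, the most abundant of the 10, had the lower values in RbpjΔEC given above.

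**Figure D3:**
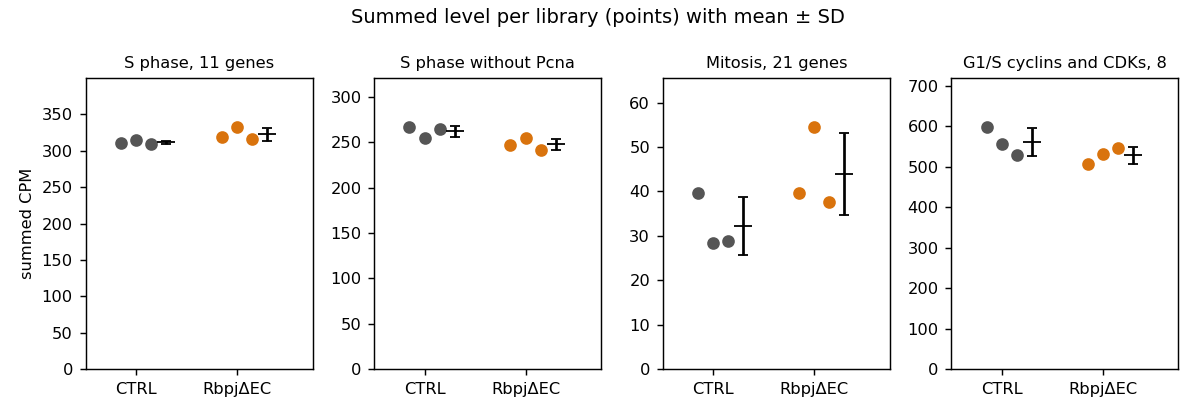
Summed CPM per library (y axis, from 0) of the 11 genes of S phase, of the same genes without Pcna, of the 21 genes of mitosis and of the 8 G1/S cyclins and CDKs, points for libraries 1 to 3 of CTRL and RbpjΔEC (x axis) with mean ± SD beside them. The S phase sum is higher in RbpjΔEC with Pcna and, just without overlap, lower when Pcna, the gene that rose, is left out. The mitosis sum of CTRL 1 (39.7 CPM) lies among those of RbpjΔEC.

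Log2 fold changes of the genes of mitosis were positive in 15 of 18 tested (against 55.3% of all tested genes under 1 CPM and 59.4% of those at 1 to 5 CPM), but no single gene passed the test. None was called by edgeR or DESeq2, and 2 had an unadjusted p under 0.05 in edgeR, a share that does not exceed the 17.5% of all tested genes. The median log2 fold change over the 18 was 0.57, and over all 21 genes fitted without the filter on low counts it was 0.60, with 17 above and 4 below 0. Ccnb2, Aurkb, Kif11 and Ube2c are among the 18 and reached the filter's level in more RbpjΔEC than CTRL libraries. The count of 15 and the median of 0.57 may therefore be set in part by the filter. With a filter on the mean CPM over all 6 libraries, the median was 0.55. Since these genes are low, they were read beside other genes of like level. Among all tested genes at 1 to 5 CPM the median log2 fold change was 0.10, and the 9 genes of mitosis in this band, all past the filter's level in all 6 libraries, had a median of 0.55. The middle value of the 9 was 0.12 (Cdc20) without RbpjΔEC 2 and 0.83 (Cenpe) without CTRL 1, so the median depended on single libraries. Ccna2 is in the band through RbpjΔEC, with means of 0.580 CPM in CTRL and 1.46 CPM in RbpjΔEC. Below 1 CPM, 4 of the 7 tested genes of mitosis (Ccnb2, Aurkb, Kif11 and Ube2c) reached that level in only some libraries, so no median is given for them. The typical standard error of a single gene was 0.529 below 1 CPM and 0.289 at 1 to 5 CPM, and 0.209% and 0.488% of all genes in these bands were called.

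Ccna2, the cyclin of S phase and G2, had the smallest p of the genes of mitosis. It was at 0.524, 0.718 and 0.497 CPM in CTRL and at 1.41, 1.95 and 1.02 CPM in RbpjΔEC. Every RbpjΔEC library was above every CTRL library, with 41 to 82 counts against 21 to 34. The log2 fold change was 1.33 (SE 0.368, 95% interval 0.52 to 2.13), with an unadjusted p of 0.00369 and an edgeR adjusted p of 0.10. It passed without the filter on low counts (edgeR adjusted p = 0.0340), in a fit that called 1436 of 38324 genes. Ccna2 is chr3:36564865-36572150 in GENCODE coordinates and overlaps Exosc9, an exosome subunit gene on the other strand. Exosc9 was at 23.0 to 26.4 CPM in CTRL and 22.4 to 25.1 CPM in RbpjΔEC, with a log2 fold change of -0.05.

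Ube2c, the ubiquitin-conjugating enzyme of the anaphase-promoting complex, had the highest fold of the 44 genes from very few counts. It was at 0.175, 0.253 and 0.0474 CPM in CTRL and 0.223, 0.620 and 0.848 CPM in RbpjΔEC. RbpjΔEC 1 lay within the CTRL range, and CTRL 3 held 2 counts. The filter's level was reached in 1 CTRL and 2 RbpjΔEC libraries, so Ube2c came to be tested more through RbpjΔEC. The log2 fold change was 1.79 (SE 0.683, 95% interval 0.30 to 3.28), with an unadjusted p of 0.0224 and an edgeR adjusted p of 0.201. Cenpe, a kinetochore motor, was at 2.42, 1.73 and 1.35 CPM in CTRL and 3.12, 3.05 and 2.10 CPM in RbpjΔEC, where CTRL 1 reached into the RbpjΔEC range (log2 fold change 0.59, SE 0.288, edgeR adjusted p = 0.314).

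Cdc20 and Cenpa were the most abundant genes of mitosis per kilobase and had log2 fold changes near 0.2. Cdc20 was at 2.94, 3.59 and 3.01 CPM in CTRL and 3.46, 4.08 and 3.44 CPM in RbpjΔEC, with overlap and a log2 fold change of 0.20 (SE 0.206). Cenpa, the histone H3 variant of centromeres, was at 4.44, 6.70 and 5.14 CPM in CTRL and 7.52, 5.98 and 5.47 CPM in RbpjΔEC, also with overlap (log2 fold change 0.22, SE 0.199, and 0.09 without CTRL 1). Bub1b, of the spindle checkpoint, and the motor Kif23 lay closer to 0 still, at -0.01 and 0.04.

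Mki67 and Top2a, which are read most often as marks of cycling cells, varied within RbpjΔEC by more than the distance between the group means. Mki67 was at 7.91, 2.66 and 4.10 CPM in CTRL and 5.11, 13.1 and 7.24 CPM in RbpjΔEC. RbpjΔEC 2 was the highest library, yet CTRL 1 exceeded both other RbpjΔEC libraries (log2 fold change 0.80, SE 0.518, edgeR adjusted p = 0.487). Its log2 fold change was 1.32 without CTRL 1 and 0.34 without RbpjΔEC 2. Top2a, the topoisomerase that untangles chromosomes, was at 2.34, 0.634 and 1.78 CPM in CTRL and 2.43, 5.24 and 2.17 CPM in RbpjΔEC, where CTRL 1 exceeded RbpjΔEC 3 (log2 fold change 1.06, SE 0.502, edgeR adjusted p = 0.322), and without RbpjΔEC 2 the log2 fold change was 0.55. Without the filter on low counts, Top2a passed with an adjusted p of 0.0106.

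Of the mitotic kinases, Cdk1, which drives mitosis, had a log2 fold change of 0.78 and Plk1 of 0.54, while Aurka was at -0.70, each with an interval that held 0. Aurkb was at -0.27, from 3 to 23 counts, and turned to 1.03 without CTRL 1 and to 0.12 without RbpjΔEC 3. Without CTRL 1, Plk1 was at 1.01 and Aurka at -0.45, and without RbpjΔEC 2, Cdk1 was at 0.35. Aurka was at 0.497 to 1.07 CPM in CTRL and 0.379 to 0.624 CPM in RbpjΔEC. The remaining tested genes of mitosis, the cyclin Ccnb2, the kinetochore gene Cenpf, the motors Kif11 and Kif20a and the spindle factor Tpx2, had values of 0.04 (Tpx2) to 1.18 (Ccnb2), and their groups overlapped. Without CTRL 1, Ccnb2 was at 2.10, Cenpf at 1.22 and Tpx2 at 0.57, and without RbpjΔEC 2, Cenpf was at 0.03, Kif11 at 0.31 and Tpx2 at -0.11. Tpx2 was at -0.37 without CTRL 2, and Kif11 at 0.28 without CTRL 3.

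Among the libraries, CTRL 1 and RbpjΔEC 2 stood out for mitosis. The 21 genes summed to 39.7, 28.3 and 28.7 CPM in CTRL and 39.6, 54.5 and 37.7 CPM in RbpjΔEC. CTRL 1 thus overlapped with RbpjΔEC, and the other CTRL libraries lay below every RbpjΔEC library. The ratio of the means was 1.36. The mitosis sum came to 12.8%, 8.99% and 9.28% of the S phase sum in CTRL and 12.4%, 16.4% and 11.9% of the S phase sum in RbpjΔEC. Without CTRL 1, the library with counts on the most genes, the median log2 fold change of the tested genes of mitosis was 1.02, and without RbpjΔEC 2 it was 0.32. No gene of mitosis was called with any library left out.

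**Figure D4:**
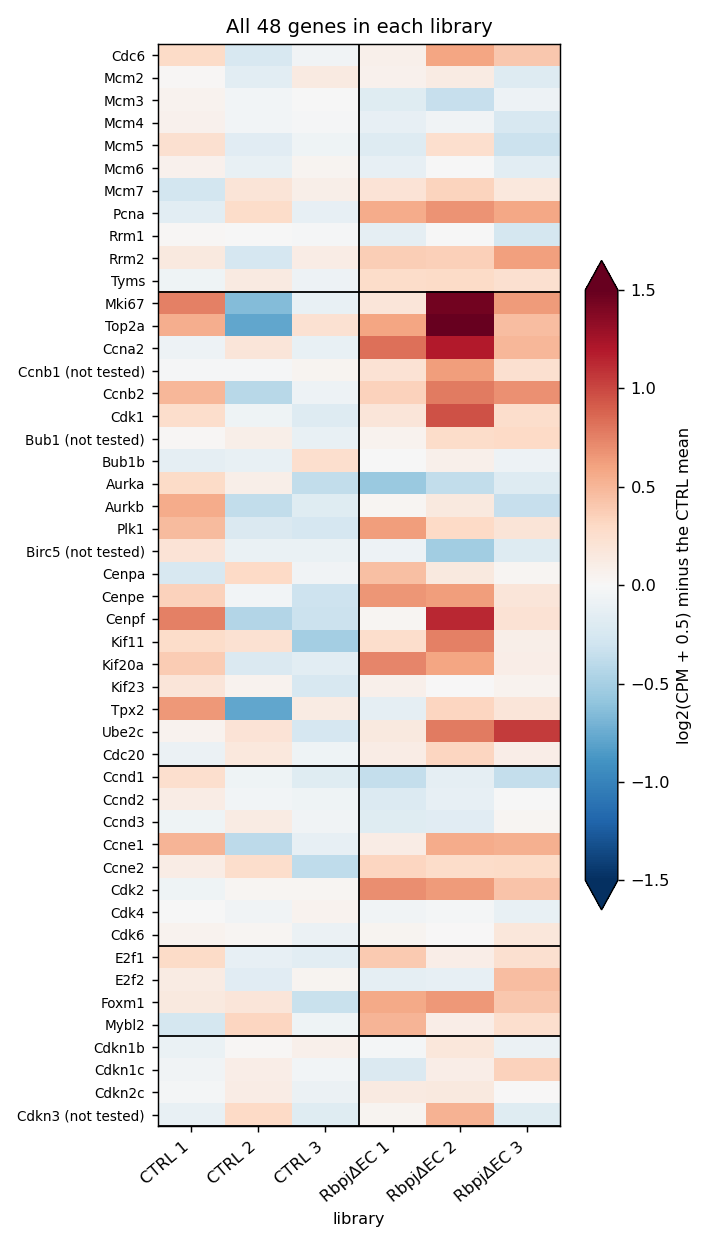
Each of the 48 genes (y axis, ordered by role with lines between the roles) in each library (x axis), as log2(CPM + 0.5) minus the CTRL mean (colour scale, red higher and blue lower, with darker ends beyond the scale). RbpjΔEC 2 is the reddest column among the genes of mitosis, CTRL 1 is red for Mki67, Cenpf and Tpx2, and the rows of Pcna and Cdk2 are red in all 3 RbpjΔEC libraries.

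Markers of other cycling cells were set beside these values. Summed B cell markers (7 genes) were at 2.74, 1.01 and 1.09 CPM in CTRL and 0.290, 0.453 and 0.674 CPM in RbpjΔEC, so that the highest sum was in CTRL 1, which also had the highest mitosis sum of the CTRL libraries. Of the germinal centre markers, Rgs13 had no count in any of the 6 libraries, and S1pr2 and Mybl1 made up nearly all of the sum of 11.6 to 13.5 CPM in CTRL and 13.1 to 14.2 CPM in RbpjΔEC. T cell markers (7 genes) summed to at most 0.734 CPM in CTRL and 0.299 CPM in RbpjΔEC, with Cd3e and Cd3d at 0 in all libraries. The 9 macrophage and myeloid markers summed to 15.4 to 19.5 CPM in CTRL and 24.3 to 29.6 CPM in RbpjΔEC. The difference was that of Cd68, at 6.98 to 12.3 against 22.1 to 25.1 CPM, whereas Ptprc, the gene of CD45, had 55 to 157 counts in CTRL and 24 to 64 in RbpjΔEC. In RbpjΔEC, where most genes of mitosis had the higher values, B cell markers were lower in sum, and T cell markers and Ptprc were lower on average with overlap. The part of these cells, and of the lower mural and fibroblast sums, in the values of the cell cycle genes was not tested. In RNA of a sorted population, fewer cells of a type and less RNA per cell cannot be told apart, and the same holds for more cycling cells and more RNA per cycling cell.

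Among the 8 G1/S cyclins and CDKs, Cdk2 rose and the others did not pass. Cdk2, the partner of E-type cyclins and of Ccna2, was at 20.4, 21.7 and 21.7 CPM in CTRL and 34.7, 33.4 and 28.7 CPM in RbpjΔEC. The CTRL libraries lay close together, and every RbpjΔEC library was above them. The means were 21.3 ± 0.781 CPM (SD, n = 3) and 32.3 ± 3.16 CPM (SD, n = 3), a 1.52-fold difference. The log2 fold change was 0.60 (SE 0.0958, 95% interval 0.39 to 0.81), with an edgeR adjusted p of 0.0157. The call was lost without CTRL 1 (adjusted p = 0.0730), CTRL 3 (0.0838), RbpjΔEC 1 (0.0970) or RbpjΔEC 2 (0.0739), with a log2 fold change of 0.55 to 0.68 over all libraries left out in turn. Its promoter stretch holds the E2F letters shown above.

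Ccnd1, the D-type cyclin that links growth signals to G1, had the lowest value of these 8 genes. It was at 138, 111 and 102 CPM in CTRL and 90.5, 106 and 90.5 CPM in RbpjΔEC. CTRL 1 was high and CTRL 3 lay below RbpjΔEC 2, so the groups overlapped. The log2 fold change was -0.29 (SE 0.111), with an unadjusted p of 0.0249 and an edgeR adjusted p of 0.212. Without CTRL 1 it was -0.16, and without the filter on low counts the gene passed (adjusted p = 0.0177). Ccnd2, the most abundant cyclin, was at 274, 248 and 242 CPM in CTRL and 221, 234 and 253 CPM in RbpjΔEC, with overlap (log2 fold change -0.11, SE 0.0764). Ccnd3, Cdk4 and Cdk6, the other components of the G1 kinases, had log2 fold changes of -0.11, -0.07 and 0.07, with intervals that stayed within -0.29 and 0.24. The E-type cyclins were low. Ccne1 was at 0.169 to 0.748 CPM in CTRL and 0.446 to 0.787 CPM in RbpjΔEC (log2 fold change 0.72, and 1.48 without CTRL 1). Ccne2 was at 0.710 to 1.39 CPM in CTRL and 1.41 to 1.47 CPM in RbpjΔEC, just without overlap (log2 fold change 0.38, edgeR adjusted p = 0.587), with 0.14 without CTRL 3 and 0.58 without CTRL 2. Summed over the 8 genes, the level was 530 to 599 CPM in CTRL and 506 to 546 CPM in RbpjΔEC.

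**Figure D5:**
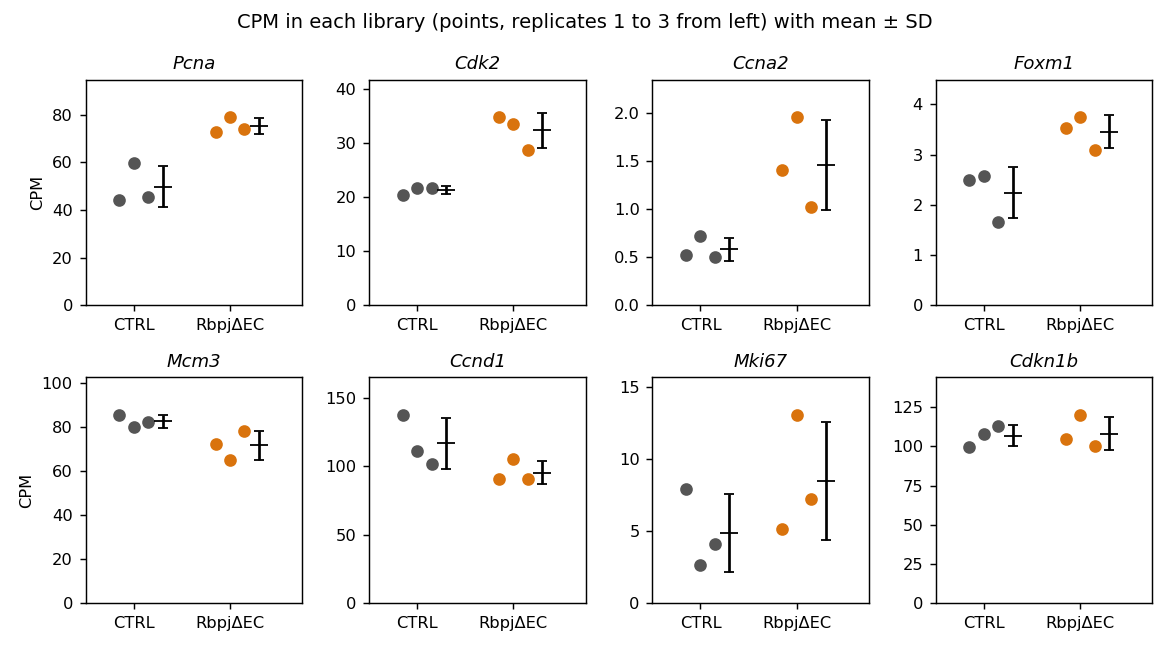
CPM (y axis, from 0) of Pcna, Cdk2, Ccna2, Foxm1, Mcm3, Ccnd1, Mki67 and Cdkn1b in libraries 1 to 3 of CTRL (grey) and RbpjΔEC (orange), with mean ± SD beside the points. Pcna, Cdk2, Ccna2 and Foxm1 are higher in every RbpjΔEC library, Mcm3 is lower in every one, and the groups overlap for Ccnd1, Mki67 and Cdkn1b.

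The 4 transcription factors that drive cell cycle genes all had positive values, and none was called by edgeR or DESeq2, with 1, Foxm1, at an unadjusted p under 0.05. Foxm1, which acts on genes of G2 and mitosis, was at 2.49, 2.58 and 1.66 CPM in CTRL and 3.52, 3.74 and 3.09 CPM in RbpjΔEC. The RbpjΔEC libraries all lay above the CTRL libraries (log2 fold change 0.62, SE 0.243, unadjusted p = 0.0251, edgeR adjusted p = 0.212). Mybl2 was at 1.02, 1.80 and 1.25 CPM in CTRL and 2.10, 1.45 and 1.67 CPM in RbpjΔEC, where CTRL 2 lay among the RbpjΔEC libraries (log2 fold change 0.36, SE 0.311, and 0.19 without CTRL 1). E2f1, an activator of S phase genes, was at 0.499, 0.253 and 0.237 CPM in CTRL and 0.580, 0.381 and 0.474 CPM in RbpjΔEC, from 10 to 26 counts, again with overlap (log2 fold change 0.54, SE 0.508, and 0.95 without CTRL 1). E2f2 was at 0.18 on the log2 scale, with an interval of -0.85 to 1.21, and turned to -0.27 without RbpjΔEC 3. The summed level of the 4 was 3.69 to 5.03 CPM in CTRL and 6.01 to 6.62 CPM in RbpjΔEC, without overlap. Foxm1 was the largest part of this sum in every library and the only 1 of the 4 whose own groups did not overlap. The separation of the sum is thus not a trait of each of the 4.

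None of the 3 tested CDK inhibitors was called by edgeR or DESeq2 or had an unadjusted p under 0.05. Cdkn1b (p27), abundant in resting cells, was at 99.9, 108 and 113 CPM in CTRL and 104, 120 and 100.1 CPM in RbpjΔEC. The groups overlapped, with a log2 fold change of 0.02 and an interval of -0.16 to 0.20. Cdkn1c (p57) was at 29.1, 32.4 and 29.3 CPM in CTRL and 25.9, 32.5 and 38.4 CPM in RbpjΔEC, where RbpjΔEC libraries were both the lowest and the highest (log2 fold change 0.09, SE 0.128). Cdkn2c (p18) was at 3.77, 4.20 and 3.58 CPM in CTRL and 4.26, 4.31 and 3.84 CPM in RbpjΔEC, with overlap as well (log2 fold change 0.10, SE 0.189).

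Other genes of the same processes, from 3 further lists, were counted beside the members. Of 47 other genes of S phase, all tested, 3 rose (against 0.575% of all tested genes) and none fell, with a median log2 fold change of 0.07 and 25 values above 0. Pola2, a subunit of the polymerase that primes replication, was at 107, 117 and 105 CPM in CTRL and 157, 150 and 155 CPM in RbpjΔEC (log2 fold change 0.49, SE 0.0688, edgeR adjusted p = 0.0101). Timeless, of the fork protection complex, was at 97.2, 113 and 91.5 CPM in CTRL and 159, 155 and 137 CPM in RbpjΔEC (log2 fold change 0.58, SE 0.0909, edgeR adjusted p = 0.0154). The groups overlapped for neither gene. Slbp, which binds histone mRNA, was at 49.3, 50.2 and 50.7 CPM in CTRL and 59.6, 70.2 and 64.3 CPM in RbpjΔEC (log2 fold change 0.37, SE 0.0783, edgeR adjusted p = 0.0471). Pola2 stayed past the threshold without CTRL 1 (adjusted p = 0.0437) but not without CTRL 3 (0.0731) or RbpjΔEC 1 (0.0681). Timeless and Slbp lost the call without CTRL 1, CTRL 3, RbpjΔEC 1 or RbpjΔEC 2, with adjusted p-values of 0.0685 to 0.0917 and 0.101 to 0.166.

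Of 63 other genes of mitosis, 48 were tested and none was called by edgeR, with 3 (Tacc3, Cks1b and Cks2) at an unadjusted p under 0.05 (against 17.5% of all tested genes) and none called by DESeq2. Their median log2 fold change was 0.25, with 36 of 48 above 0. Tacc3, a spindle protein, was at 1.97, 1.96 and 2.23 CPM in CTRL and 3.21, 3.70 and 3.69 CPM in RbpjΔEC, with no overlap (log2 fold change 0.78, SE 0.218, edgeR adjusted p = 0.101). Cks1b, a CDK subunit, was at 0.374, 1.18 and 1.07 CPM in CTRL and 1.41, 2.81 and 1.95 CPM in RbpjΔEC, also with no overlap (log2 fold change 1.22, SE 0.424, edgeR adjusted p = 0.168). Of 37 other genes of cell cycle control, 35 were tested and 1 rose (against 0.575% of all tested genes). Btg2, an antiproliferative gene, was at 260, 345 and 298 CPM in CTRL and 453, 474 and 426 CPM in RbpjΔEC (log2 fold change 0.58, SE 0.0972, edgeR adjusted p = 0.0212). It lost the call without CTRL 1 (adjusted p = 0.0588), CTRL 3 (0.116), RbpjΔEC 1 (0.101) or RbpjΔEC 2 (0.0823).

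Positions and neighbours were taken from GENCODE on GRCm38. Pcna lies at chr2:132249162-132253314 on the minus strand. Tmem230, a membrane protein gene on the same strand 1354 bases downstream of Pcna, was at 11.9, 13.4 and 12.4 CPM in CTRL and 21.2, 23.4 and 24.2 CPM in RbpjΔEC and rose as well (log2 fold change 0.87, edgeR adjusted p = 0.00468). The part of this neighbour in the value of Pcna was not tested. The pseudogene Pcna-ps2 was at 0.268 to 0.620 CPM in all libraries, far below Pcna. Cdk2 lies at chr10:128697939-128705031 on the minus strand and overlaps Pmel on the other strand, which was below 1 CPM in every library. Its neighbour on the same strand, Rab5b, 1674 bases away, had a log2 fold change of -0.27 (edgeR adjusted p = 0.177). In all, 22 of the 48 genes overlap another gene on either strand and 7 on the same strand. Whether the counting used the strand of the reads is not given in the sources used here. Counts of overlapping genes such as Ccna2, Ccnd1, Mcm7, Kif20a and Cdc20 may therefore hold reads of their partners. The partner of Cdc20, Elovl1 on the other strand, was at 33.8 to 43.3 CPM over the libraries, with a log2 fold change of -0.31.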

How the data were processed

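RNA of sorted kidney ECs was measured in 6 libraries, 3 CTRL and 3 RbpjΔEC, grouped by their labels. Per the study's methods, stranded total RNA libraries were made from 2 ng of RNA and sequenced in 1 run. The authors trimmed reads with Trim Galore 0.6.4, aligned them to GRCm38.p6 with STAR 2.6.1d (nf-core pipeline) and deposited counts per gene from featureCounts (Subread 1.6.4, per the submitters' processing notes), without normalization. From these counts, edgeR 4.0.16 in R 4.3.3 gave TMM factors, CPM and log2 fold changes (filterByExpr, estimateDisp and glmQLFit with robust estimation, glmQLFTest), with Benjamini-Hochberg adjustment over all 18438 tested genes and a threshold of 0.05. The SE of a log2 fold change is its size divided by the square root of F. DESeq2 1.42.0 was run as an alternative. Exonic lengths and positions came from an earlier GENCODE release of the same build (GRCm38) than the authors' own, so positions can differ. The replicates are separate mice per the study's methods.

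Members and lists were chosen with earlier results of these data known. All 48 members are accounted for. Values per library were given for the 3 genes of each role with the smallest unadjusted p, for the 2 most abundant per kilobase, and for genes past the threshold in the lists of other cell cycle genes (otherwise the 2 with the smallest p). Mki67, Top2a, the 4 untested genes, Tmem230 and the other neighbours were named outside this rule, after their values were seen. Alternatives were the scaling, the filter on low counts, DESeq2, the replicate number as a block and each library left out. Floors and CPM of low genes cover counting error only. No set test was run. The results for 2 marker genes are not reported here.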

Additional observations from a re-analysis of the deposited data

How the results depend on the processing

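The number of genes called over all genes fitted moved most. It was 209 of 18438 as reported, 1436 of 38324 without the filter on low counts and 584 of 38324 with DESeq2. With the replicate block it was 344, and with 1 library left out 21 to 700. The cause was not tested. Same-numbered libraries did not deviate together (correlations of 0.0231, 0.00916 and 0.00544), so the block shares only a number between groups; it kept the calls of Pcna (adjusted p = 0.00716) and Cdk2 (0.0170) and ended that of Slbp (0.0538). With 1 library left out, called genes numbered 0 to 1 in S phase, 0 to 1 among the G1/S cyclins and CDKs, 0 to 3 among other S phase genes and 0 to 3 among other control genes. Without the filter on low counts, 2 genes of mitosis (Ccna2 and Top2a), 2 G1/S genes (Cdk2 and Ccnd1), 1 other gene of mitosis (Cks1b) and 4 other control genes (Btg1, Btg2, Cdk8 and Myc) passed. They stood beside the 1436 called of all 38324 genes in that fit. Other control genes numbered 2 under library size alone, DESeq2 and the replicate block (Btg1 and Btg2) and under the filter of 1 CPM in 3 libraries. The median of mitosis ranged from 0.32 to 1.02 with 1 library left out. The log2 ratio of the S phase sum was 0.05, but 0.0938 with library size alone, 0.13 without its most abundant member (Mcm3) and -0.0802 without Pcna. With 1 library left out, Cdkn1b ranged from -0.0632 (without RbpjΔEC 2) to 0.0708 and was also negative without CTRL 1 (-0.0325), and Cdkn1c ranged from -0.0509 (without RbpjΔEC 3) to 0.228. Genes under 1 CPM, most of them of mitosis, rest on few counts, which limits what 3 mice a group can show for them.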
